A study of Mus musculus with 6 samples.

Results

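The Zbtb genes are a family of transcription factors that join a BTB domain to zinc fingers. They were compared between mouse bone marrow sorted for green fluorescent protein (GFP) and unsorted marrow of the same pools. Members were the genes whose single symbol in the array's annotation starts with Zbtb and a number, and 40 of 18193 measured genes met this rule, read by 87 of 34945 probe sets. A probe set is a group of array probes designed against 1 transcript, and each gene is represented by its brightest probe set, by the mean of the 6 arrays. A single member, Zbtb11os1, is a long non-coding RNA named for its place opposite Zbtb11 and has no zinc fingers, so 39 members are family genes proper.

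Both groups came from adult mice, male and female, aged 3 to 6 months and hemizygous for a transgene in which renin drives GFP. Femur marrow of 4 to 5 animals was pooled for each of 3 replicates. A part of each pool stayed unsorted (presort, 3 samples), and the remainder went through a sort by scatter, for single cells and then for GFP (sorted, 3 samples). The presort marrow therefore carries the transgene too and holds the GFP-positive cells, and the scatter gate took erythrocytes out of the sorted samples alone. The lower GFP limit let in 0.1% of cells of animals without the transgene, and animals within a pool cannot be told apart. Values are log2 of the intensities the authors deposited, and differences are sorted minus presort on that log2 scale, so a difference of 1 is 2-fold.

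In these proteins the zinc fingers bind DNA, while the BTB domain pairs the molecules and recruits corepressors with histone deacetylases, so most members act as repressors. In the blood system the family holds several factors that set cell fate, among them ThPOK (Zbtb7b) in helper T cells, PLZF (Zbtb16) in innate-like lymphocytes, LRF (Zbtb7a) in red cells and B cells, and Miz-1 (Zbtb17) in lymphocyte progenitors. Zbtb4, Zbtb33 and Zbtb38 read methylated CpG sites in DNA.

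In the sorted marrow 15 of the 40 Zbtb genes were higher, 4 were lower and 21 were not called, where a call is an adjusted p under 0.05 in limma after Benjamini-Hochberg correction over all genes. Zbtb10, Zbtb4, Zbtb21 and Zbtb20 had the largest rises, and Zbtb42, Zbtb7b, Zbtb34 and Zbtb8a were the members that fell. Over all 18193 genes 32.6% were called, 14.5% higher and 18.1% lower, against 37.5% higher and 10% lower among the Zbtb genes. Dim genes are seldom called and few members are dim. Outside the dimmest 33.3% of genes by mean of the 6 arrays, 42.9% of 35 members were higher and 11.4% lower. Over all 12128 such genes the shares were 21.0% and 25.3%. At least 2-fold differences were called for 9 members upward and 2 downward, where the share over all genes was 5.8% upward and 10.3% downward. The median difference was 0.21 over the family and -0.0021 over all genes, and the family's median was 0.10 in pool 1, 0.15 in pool 2 and 0.26 in pool 3. With each array centred on its own median the medians became 0.44 and 0.23, and 18 members were higher and 4 lower; among all called genes that centring moved the share of higher ones from 44.4% to 66.7%. These are counts of a family chosen with earlier results known, and they were not tested as a set. In bulk marrow, fewer cells of a type and less RNA per cell cannot be told apart, here or in any value below.

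The 3 sorted values lay wholly above or below the 3 presort values for 24 members, all 19 called ones and 5 others, and 44.4% of all genes show such a separation. Outside the dimmest 33.3% of genes it was seen in 24 of 35 members and in 6914 of 12128 genes. Leaving out pool 3 lowered the number of higher members from 15 to 9, and over all genes from 2629 to 1544; the 6 members lost were Zbtb1, Zbtb5, Zbtb11, Zbtb40, Zbtb43 and Zbtb48. Sorted replicate 1 had the highest of the 3 sorted values in 9 of the 15 higher members, and presort replicate 1 the highest presort value in 10 of them. That sorted array also stood apart in RNA quality, with a 3' minus 5' difference of the beta-actin control probe sets of 3.17, against 1.54 and 1.43 on the other sorted arrays and 0.81 to 1.11 on the presort arrays. Without that array 17 members were higher and 4 lower. The beta-actin difference was larger on every sorted array than on any presort array, so RNA quality cannot be told apart from the sort. The same limit holds wherever this difference serves as a covariate below.

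**Figure D1:**
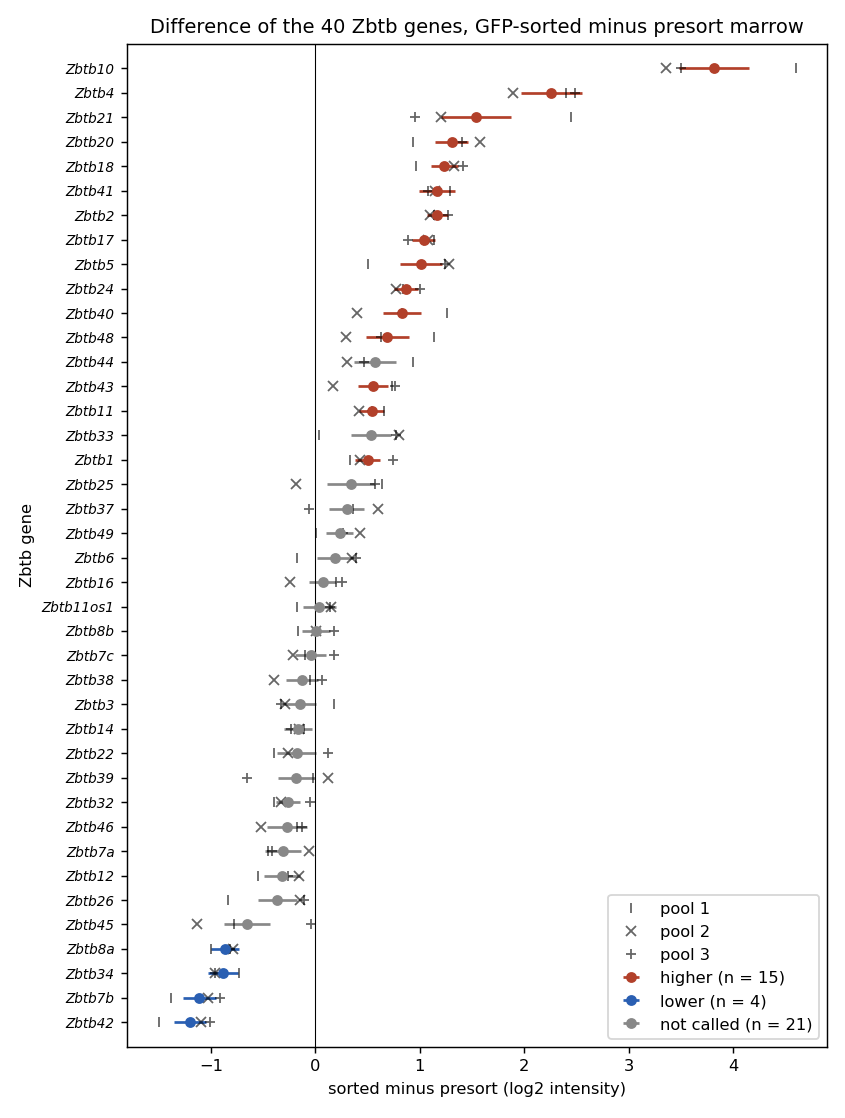
Difference of each of the 40 Zbtb genes, sorted minus presort, in log2 intensity on the horizontal axis, with the genes in order of difference on the vertical axis. Circles are the means over 3 pools with the standard error of the limma fit, coloured by call, and the small black marks are the 3 pools; 15 genes were higher, led by Zbtb10 at 3.82, and 4 were lower, down to Zbtb42 at -1.20.

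Zbtb10, a repressor of Sp family transcription factor genes that has also been found at telomeric repeats, had the largest difference in the family. Its log2 intensity was 6.77, 6.60 and 6.61 in presort replicates 1, 2 and 3 and 11.37, 9.96 and 10.11 in the sorted ones. Every sorted value lay more than 3 log2 units above every presort value, with replicate 1 the highest in both groups. The rise was 3.82 ± 0.34 (SE, 14.1-fold, limma adjusted p = 9.4e-05), and 3.38 without sorted replicate 1. The gene's probe sets disagreed: the second rose by 1.77 ± 0.12 and the other stood at -0.08 ± 0.15 and was not called. The mean of the 3 probe sets rose by 1.84, so both the size of the rise and its call depend on the probe set read.

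Zbtb4, which binds methylated CpG sites and represses the cell cycle inhibitor gene Cdkn1a, was the next in order. It was at 7.996, 7.39 and 7.35 in presort and at 10.40, 9.28 and 9.83 in sorted replicates 1 to 3, with no overlap. It rose by 2.26 ± 0.29 (SE, 4.79-fold, limma adjusted p = 0.000642). Of its other probe sets 2 rose, by 1.94 and 2.15, and 1 was not called at 0.14. The other 2 members that read methylated DNA were not called, and their difference from Zbtb4 was not tested. Zbtb33, which encodes Kaiso, was at 10.23, 10.22 and 10.11 in presort and at 10.27, 11.02 and 10.88 in sorted samples. Sorted replicate 1 lay next to the presort values and the other sorted values well above them. The difference of Zbtb33 was 0.53 ± 0.19 (limma adjusted p = 0.0737), and without sorted replicate 1 it was 0.76 and called (0.00205; over all alternatives the adjusted p ran from 0.00205 to 0.394). Zbtb38 was at 7.64, 7.56 and 7.64 in presort and at 7.59, 7.16 and 7.70 in sorted samples, which overlap, and its 3 probe sets differed by -0.13 to 0.04.

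To show what lies upstream of members that moved in either direction, the 250 bases before the listed start are printed 5′ to 3′ from RefSeq's promoter table for GRCm38.p6. The genes are the 2 largest risers and the 2 largest fallers with an entry that lies wholly before the gene's first base, a choice made after the values were seen. Zbtb4 (chr11:69765662-69765911, plus strand) and Zbtb18 (chr1:177442101-177442350, plus strand) rose, and Zbtb34 (chr2:33431325-33431574, minus strand) and Zbtb8a (chr4:129378029-129378278, minus strand) fell. Capitals mark matches to the motifs searched, which in these windows are all GGGCGG, the GC box bound by Sp factors, on either strand.
Zbtb4: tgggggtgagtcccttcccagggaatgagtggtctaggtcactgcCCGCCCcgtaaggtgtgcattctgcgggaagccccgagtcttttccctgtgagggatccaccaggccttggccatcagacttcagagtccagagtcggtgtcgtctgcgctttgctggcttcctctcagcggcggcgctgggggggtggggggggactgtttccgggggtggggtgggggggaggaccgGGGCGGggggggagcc
Zbtb18: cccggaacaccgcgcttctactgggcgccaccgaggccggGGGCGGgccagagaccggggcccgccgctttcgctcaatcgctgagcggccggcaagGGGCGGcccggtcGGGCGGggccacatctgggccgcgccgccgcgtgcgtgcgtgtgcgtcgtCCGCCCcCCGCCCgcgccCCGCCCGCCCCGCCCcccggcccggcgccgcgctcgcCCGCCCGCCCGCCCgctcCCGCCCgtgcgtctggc
Zbtb34: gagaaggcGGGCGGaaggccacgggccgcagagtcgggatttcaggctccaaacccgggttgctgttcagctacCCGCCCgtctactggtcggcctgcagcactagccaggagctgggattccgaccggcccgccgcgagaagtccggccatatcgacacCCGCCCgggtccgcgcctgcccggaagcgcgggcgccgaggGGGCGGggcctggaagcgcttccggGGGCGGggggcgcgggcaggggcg
Zbtb8a: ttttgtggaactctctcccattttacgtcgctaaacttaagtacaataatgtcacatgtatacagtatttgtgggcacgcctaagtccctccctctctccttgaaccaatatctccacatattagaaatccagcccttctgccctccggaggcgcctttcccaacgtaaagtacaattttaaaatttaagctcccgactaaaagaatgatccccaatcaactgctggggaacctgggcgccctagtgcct
The motif occurs 2 times in the window of Zbtb4, 12 times in that of Zbtb18, 5 times in that of Zbtb34 and 0 times in that of Zbtb8a, at GC contents of 67.6%, 84.0%, 74.4% and 45.6%. Its presence did not separate these genes by direction. The table held 48 such windows for 35 of the 40 members, and GGGCGG was in 60.4% of them, against 32.7% of all 32851 windows of the same length. The median GC content was 64.6% in the members' windows and 52.4% in all. Other motifs searched on both strands were TGANTCA (AP-1), in 1 of the 48 windows and 6.75% of all, TGACGTCA (CRE), in 1 and 1.55%, CACGTG (E-box), in 5 and 6.02%, and TCCTGCNA (the Kaiso site), in 4 and 4.03%; no motif searched contains another. A match is a run of letters and says nothing of binding in these cells.

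Each member was counted under a single role at most. Of the 8 members counted under lymphocyte and plasma cell fate, 4 rose and 1 fell (50% and 12.5%, against 14.5% and 18.1% of all genes). Zbtb7a, whose product LRF also acts in B cells, is counted with the myeloid, dendritic and red cell members below. Zbtb20, a factor of germinal centre B cells and plasma cells that supports lasting antibody production, was at 8.96, 8.55 and 8.45 in presort and at 9.89, 10.13 and 9.85 in sorted samples. The groups did not overlap, and the rise was 1.30 ± 0.16 (SE, 2.47-fold, limma adjusted p = 0.000492). All 9 probe sets of Zbtb20 rose, by 0.85 to 2.25. Zbtb17, whose product Miz-1 binds Myc and is needed in early B and T lineage cells, was at 8.76, 8.65 and 8.75 in presort and at 9.89, 9.73 and 9.64 in sorted samples. Its spread within groups was small beside the rise of 1.04 ± 0.11 (2.05-fold, limma adjusted p = 0.00026). The second Zbtb17 probe set was not called at 0.12, and the mean of the 2 rose by 0.58.

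Zbtb24, mutated in a human immunodeficiency with unstable centromeres, was at 9.12, 9.11 and 8.85 in presort and at 9.95, 9.88 and 9.85 in sorted samples. It rose by 0.87 ± 0.12 (SE, limma adjusted p = 0.000775), with its second probe set not called at 0.37. Zbtb1, which is needed for lymphocyte development, was at 9.61, 9.48 and 9.41 in presort and at 9.94, 9.91 and 10.15 in sorted samples. The groups did not overlap, but the rise of Zbtb1 was the smallest of the called ones, 0.50 ± 0.12 (limma adjusted p = 0.013). Its call was lost without presort replicate 2 or 3 (limma adjusted p of 0.0527 and 0.0624) and without pool 2 or 3 (0.0722 and 0.159), and over all alternatives the adjusted p ran from 0.00226 to 0.159. Zbtb25, the neighbour of Zbtb1 on the chromosome and a repressor of NFAT target genes, was at 7.997, 7.85 and 7.74 in presort and at 8.63, 7.66 and 8.31 in sorted samples. Those groups overlap through sorted replicate 2, and the difference of 0.34 ± 0.23 was not called; without that array it was 0.61 and called (limma adjusted p = 0.0213; 0.0213 to 0.878 over all alternatives).

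Markers of the B lineage moved with these genes. Of 21 measured B lineage markers 19 were higher and 1 lower, and their summed intensity was 26345 to 48084 on the presort arrays and 142177 to 158410 on the sorted ones. Of 12 plasma cell markers 6 were higher and 2 lower, where 14.5% of all genes were higher and 18.1% lower. The count of lower plasma cell markers was 1 without pool 2 or pool 3 and 3 without sorted replicate 2 or with the pool as a block. The part of this shift in the rises of Zbtb1, Zbtb17, Zbtb20 and Zbtb24 was not tested.

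The factor of helper T cells fell. Zbtb7b, which encodes ThPOK, was at 8.70, 8.84 and 8.78 in presort and at 7.31, 7.81 and 7.86 in sorted samples. Presort values were close together and all above the sorted ones, of which replicate 1 was the lowest. The fall was -1.11 ± 0.16 (SE, 2.16-fold, limma adjusted p = 0.00114), and the second probe set of Zbtb7b fell too, at -0.52. Of 17 measured T cell markers 3 were lower and none higher, where 18.1% of all genes were lower and 14.5% higher. The summed intensity of the 17 was 1472 to 1961 in presort and 1078 to 1526 in sorted samples, and 5 lay in the dimmest 33.3% of genes. At an unadjusted p under 0.05, 4 of the 17 differed, and the count of lower markers ran from 1 without presort replicate 1 to 6 without pool 3. The part of these markers in the fall of Zbtb7b was not tested.

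Members that mark innate lymphocytes, dendritic cells or activated lymphocytes were not called at their brightest probe set. Of Zbtb16, Zbtb46 and Zbtb32, Zbtb46 alone lay in the dimmest 33.3% of genes. Zbtb16, which encodes PLZF, was at 5.49, 5.83 and 5.52 in presort and at 5.68, 5.59 and 5.78 in sorted samples. The groups overlap at a difference of 0.07 ± 0.13, yet the other 2 probe sets of Zbtb16 fell, by 0.49 and 1.06 on the log2 scale. Both lay in the dimmest 33.3% of probe sets, and the one that fell more is of a kind that can match several transcripts. The mean of the 3 fell by 0.49 (limma adjusted p = 0.0168, and 0.0168 to 0.987 over all alternatives). The direction of Zbtb16 is therefore not settled. Of 14 measured markers of NK and innate lymphoid cells 6 were lower and none higher, where 18.1% of all genes were lower and 14.5% higher. At an unadjusted p under 0.05, 9 of the 14 differed, and the count of lower ones ran from 1 without pool 1 to 9 without sorted replicate 3.

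Zbtb46, a factor of classical dendritic cells, was at 5.34, 6.02 and 5.57 in presort and at 5.16, 5.50 and 5.45 in sorted samples, which overlap. None of its 4 probe sets was called, at -0.64 to 0.13, but with the pool as a block the lowest of them was called lower (limma adjusted p = 0.0439, against 0.0663 without the block). Zbtb32, which restrains cytokine genes and memory B cell responses, was at 5.77, 5.80 and 5.68 in presort and at 5.37, 5.47 and 5.62 in sorted samples. The Zbtb32 values do not overlap, but the difference of -0.26 ± 0.11 did not pass (limma adjusted p = 0.124). Of 15 measured dendritic cell markers, Zbtb46 itself among them, 3 were higher and 8 lower, where 14.5% of all genes were higher and 18.1% lower. Spib, also counted as a B lineage marker, was among the higher ones. The count of lower dendritic cell markers ran from 3 without pool 2 to 9 without sorted replicate 3.

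Of the 3 members counted under myeloid, dendritic and red cells, 1 rose and none fell, so 33.3% were called, near the 32.6% of all genes. Zbtb7a, which encodes LRF, was at 8.76, 8.82 and 9.17 in presort and at 8.31, 8.76 and 8.75 in sorted samples. Sorted replicate 2 reached the lowest presort value, and the difference of -0.31 ± 0.17 was not called (limma adjusted p = 0.229). Its other probe sets stood at 0.31 and 0.10, so its sign changes with the probe set. Of 18 measured erythroid markers 17 were lower, with a median of -2.66, and 14 were lower without pool 2. Over all genes 18.1% were lower. The difference between Zbtb7a and those markers was not tested. Zbtb11, which is needed for neutrophil development in fish, was at 9.65, 9.96 and 9.82 in presort and at 10.30, 10.38 and 10.36 in sorted samples. It rose by 0.54 ± 0.12 (limma adjusted p = 0.00886), whereas all 17 measured neutrophil markers were lower, and 13 of them without pool 3. The call of Zbtb11 was lost without pool 3 (limma adjusted p = 0.0961, and 0.000815 to 0.0961 over all alternatives). Zbtb11os1, the RNA opposite Zbtb11, was not called at 0.03 ± 0.16.

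**Figure D2:**
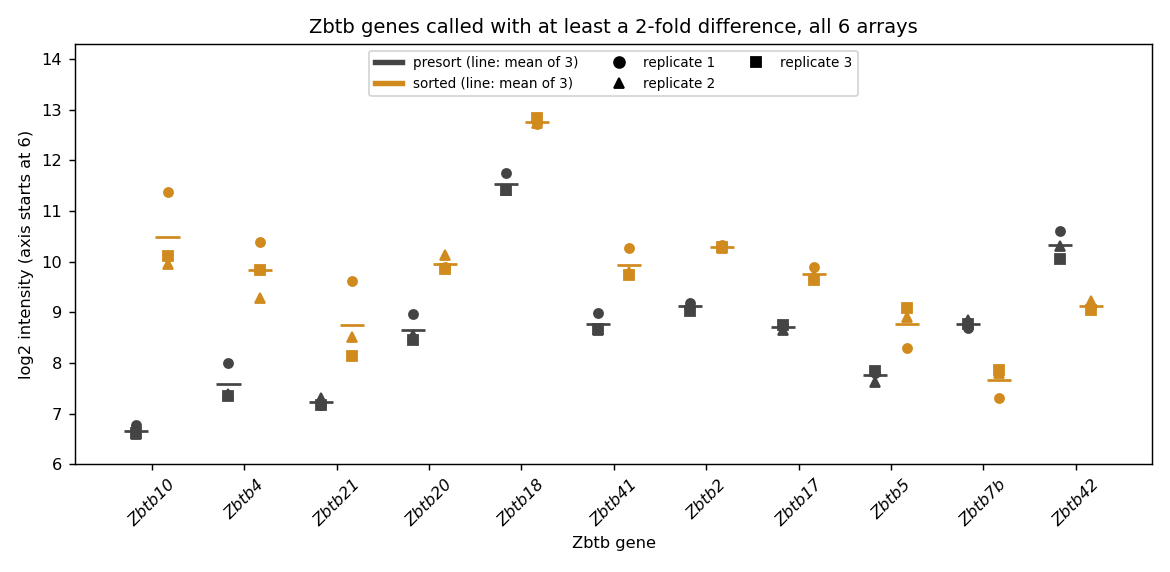
Log2 intensity on the vertical axis, which starts at 6, of the 11 Zbtb genes called with a difference of at least 1, on all 6 arrays. Symbols are replicates, colours are groups and lines are means of 3; sorted values lie above presort values in 9 genes and below them in Zbtb7b and Zbtb42, and levels of different genes are not comparable.

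Of the 6 members counted under telomeres or control of cell cycle inhibitor genes, 5 rose, Zbtb10 included (83.3%, against 14.5% of all genes). The share depends on that grouping, since Zbtb4, also a repressor of Cdkn1a, is counted with the methyl-CpG readers. Zbtb2, a repressor of Cdkn1a and of the p53 pathway, was at 9.19, 9.17 and 9.03 in presort and at 10.32, 10.27 and 10.30 in sorted samples. The sorted values lay close together, and the rise of 1.17 ± 0.10 (SE, 2.25-fold) had the lowest adjusted p in the family (limma, 9.32e-05). Its second probe set was not called at -0.08, and the mean of the 2 rose by 0.54. Zbtb5, another repressor of Cdkn1a, was at 7.80, 7.63 and 7.83 in presort and at 8.30, 8.90 and 9.08 in sorted samples. Sorted replicate 1 was the lowest here, unlike in Zbtb10 and Zbtb4. Zbtb5 rose by 1.01 ± 0.20 (limma adjusted p = 0.00548), and its call was lost without pool 2 (0.0703) or pool 3 (0.0532; 0.000326 to 0.0703 over all alternatives).

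Zbtb48, whose product binds telomeric repeats and limits telomere length, went from 7.70 ± 0.05 to 8.39 ± 0.43 (SD, log2, n = 3 each), and Zbtb40 from 7.26 ± 0.09 to 8.09 ± 0.35. Zbtb48 rose by 0.69 and Zbtb40 by 0.83 (limma adjusted p of 0.0355 and 0.00845). With the beta-actin 3' minus 5' difference as a covariate they stood at 0.24 and 0.55 and were not called (limma adjusted p of 0.342 and 0.0912). That covariate was larger on every sorted than on any presort array and cannot be told apart from the sort. Both calls held without sorted replicate 1, at 0.45 and 0.67 (limma adjusted p of 0.0302 and 0.0143). The call of Zbtb48 was also lost without any 1 of the presort arrays, sorted replicate 3, pool 1 or pool 3 (adjusted p from 0.0522 to 0.170) and that of Zbtb40 without pool 3 (0.0857). Over all alternatives the adjusted p ran from 0.00945 to 0.342 for Zbtb48 and from 0.00161 to 0.0912 for Zbtb40. Zbtb49 was the member of this group that was not called, at 0.23 ± 0.13, and it was called higher at 0.48 after quantile normalization and at 0.46 with arrays centred on their median (limma adjusted p of 0.0193 and 0.0201; 0.0193 to 0.657 over all alternatives).

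Markers of cell division moved the other way, with 19 of 19 measured markers lower in sorted samples and a median of -2.64. Of 22 measured immediate early genes, which respond within minutes to stimuli and handling, 17 were higher and 1 lower, with 10 higher without pool 3. Beside both lists, 14.5% of all genes were higher and 18.1% lower. Whether either shift has a part in the values of these 6 members was not tested. Cdkn1a itself was not called, at -0.44 ± 0.15 (limma adjusted p = 0.0641), nor was Sp1, at 0.11 ± 0.23.

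Among members with less known of them in blood, Zbtb21 rose from 7.17, 7.31 and 7.18 in presort to 9.62, 8.51 and 8.13 in sorted samples. The presort arrays agreed closely and the sorted ones were spread over more than 1 log2 unit, with replicate 1 the highest. The rise was 1.54 ± 0.34 (SE, 2.9-fold, limma adjusted p = 0.00899), all 3 probe sets of Zbtb21 rose, by 0.89 to 1.54, and with the beta-actin covariate the rise was 0.71. Zbtb18, a repressor known from the developing cerebral cortex, was bright in both groups, at 11.75, 11.41 and 11.42 in presort and 12.71, 12.74 and 12.83 in sorted samples. Its rise of 1.24 ± 0.13 (2.36-fold, limma adjusted p = 0.0002) was well outside the spread of either group. Zbtb41 was at 8.98, 8.65 and 8.67 in presort and at 10.27, 9.80 and 9.74 in sorted samples, a rise of 1.17 ± 0.17 (limma adjusted p = 0.00124), with its second probe set not called at 0.43.

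Of the remaining fallers, Zbtb42, known from skeletal muscle, was at 10.61, 10.32 and 10.05 in presort and at 9.11, 9.22 and 9.04 in sorted samples. It had the largest fall in the family, -1.20 ± 0.16 (SE, 2.3-fold, limma adjusted p = 0.000624), read by a single probe set. Zbtb8a went from 6.11 ± 0.20 to 5.24 ± 0.10 (SD, n = 3 each) and fell by 0.87 (limma adjusted p = 0.00151). Its neighbour Zbtb8b, among the dimmest 33.3% of genes, was not called at 0.0041 ± 0.13.

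Zbtb34 and Zbtb43, which lie next to each other with no protein-coding gene between them, were called in opposite directions. Zbtb34 was at 10.37, 10.21 and 10.20 in presort and at 9.64, 9.24 and 9.23 in sorted samples, all lower. It fell by 0.89 ± 0.14 (SE, limma adjusted p = 0.00186) at its brightest probe set, while its other probe set was not called at 0.30 and the mean of the 2 fell by 0.30. Zbtb43 was at 9.53, 9.70 and 9.50 in presort and at 10.26, 9.86 and 10.27 in sorted samples. Its rise of 0.55 ± 0.14 (limma adjusted p = 0.019) was lost without presort replicate 1 or 3, sorted replicate 3, pool 1 or pool 3 and with the beta-actin covariate (adjusted p from 0.0596 to 0.194; 0.00325 to 0.194 over all alternatives).

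The 21 members not called had differences from -0.65 to 0.57, 9 above 0 and 12 below. Zbtb44 was the nearest to a rise among them: it was at 9.39, 10.16 and 10.03 in presort and at 10.33, 10.47 and 10.49 in sorted samples, with presort replicate 1 the lowest. Its difference of 0.57 ± 0.20 missed the threshold (limma adjusted p = 0.0641) and passed with the pool as a block (0.0262; 0.00786 to 0.204 over all alternatives). Zbtb45 was the nearest to a fall, at -0.65 ± 0.22 (limma adjusted p = 0.0557), and was called at -0.87 without sorted replicate 3 (0.0133; 0.0133 to 0.249 over all alternatives). Zbtb14, a repressor of Myc, was at 10.54, 10.45 and 10.30 in presort and at 10.42, 10.30 and 10.06 in sorted samples. The groups overlap and the brightest Zbtb14 probe set was not called at -0.17 ± 0.13, but that probe set is of a kind that can match several transcripts, and without such probe sets Zbtb14 fell by 0.47 (limma adjusted p = 0.0232; 0.0232 to 0.771 over all alternatives). Zbtb6, Zbtb22, Zbtb26, Zbtb37, Zbtb39, Zbtb3, Zbtb7c and Zbtb12 lay between -0.37 and 0.30. Zbtb6, at 0.19, was called higher at 0.38 without sorted replicate 1 (limma adjusted p = 0.0300) and at 0.56 with the beta-actin covariate (0.0194; 0.0194 to 0.880 over all alternatives). Zbtb3, at -0.15, was called lower at -0.46 with that covariate (limma adjusted p = 0.0390; 0.0390 to 0.908 over all alternatives). The members Zbtb3, Zbtb8b, Zbtb12, Zbtb37 and Zbtb46 lay in the dimmest 33.3% of all genes, and none of these 5 was called.

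At the level of probe sets, 28 of 87 were higher and 8 lower, or 41.4%, where 28.8% of all single-symbol probe sets were called, 13.5% higher and 15.3% lower. Of the 26 members with more than 1 probe set, 12 had no probe set called, 3 had every probe set called in 1 direction (Zbtb7b, Zbtb20 and Zbtb21) and 11 had some called and others not. No member had probe sets called in opposite directions.

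**Figure D3:**
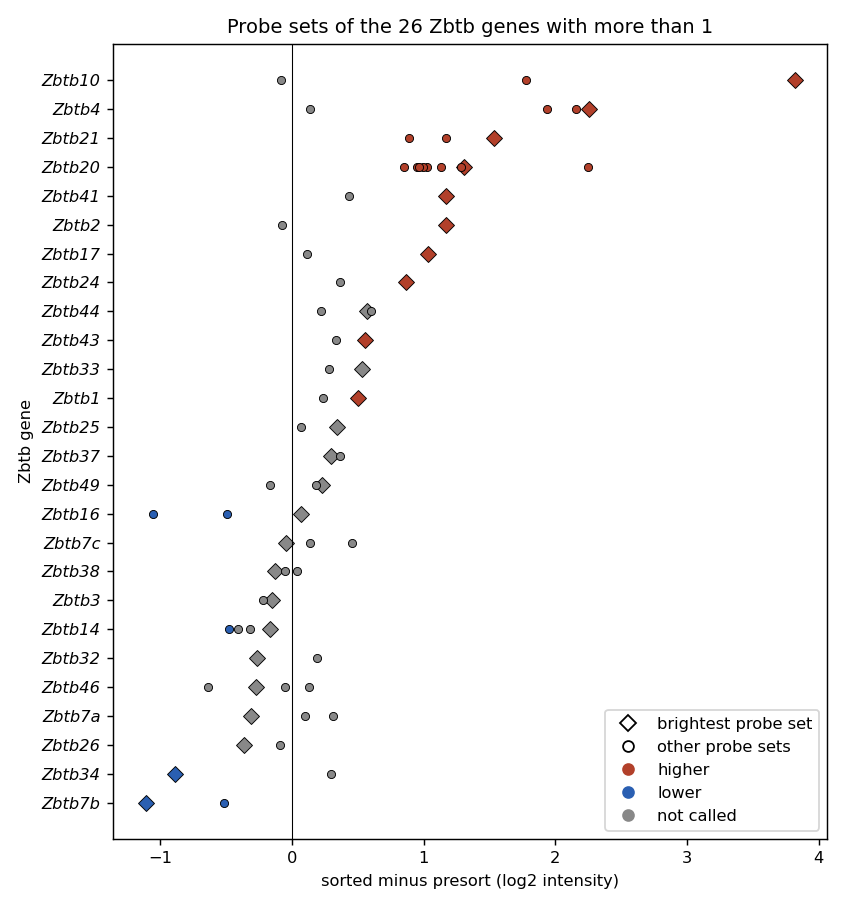
Difference, sorted minus presort, in log2 intensity on the horizontal axis, of every probe set of the 26 Zbtb genes with more than 1, with genes on the vertical axis in order of the brightest probe set. Diamonds are the brightest probe sets, circles the others, and colours the call; all 9 probe sets of Zbtb20 lie between 0.85 and 2.25, while those of Zbtb10 run from -0.08 to 3.82 and 2 of Zbtb16 were called lower beside a brightest one near 0.

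Of 8 measured zinc finger genes with a BTB domain that carry other names, 1 was higher and none lower, with a median of 0.18. At an unadjusted p under 0.05, 2 of the 8 differed. Calls among the 18193 measured genes came to 14.5% upward and 18.1% downward, so a single riser in 8 is close to the general rate. Zfp131 rose by 0.94 ± 0.16 (SE, limma adjusted p = 0.0024). Bcl6, the master repressor of germinal centre B cells, was not called at 0.12 ± 0.10, and Patz1 stood at 0.15 ± 0.12. The difference of these genes from the Zbtb genes was not tested.

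Of 32 measured corepressors and partners of BTB domains 6 were higher and 5 lower, with a median of -0.06. These counts are near the share over all genes, 14.5% higher and 18.1% lower. Hdac9, a histone deacetylase of class IIa, rose by 3.17 ± 0.17 (SE, limma adjusted p = 1.94e-05), and Bcor, which binds the BTB domain of Bcl6, rose by 1.51 ± 0.20. The class IIa genes Hdac5 and Hdac7 rose by 1.14 and 1.03, whereas Hdac4 fell by 0.93. The class I genes Hdac1, Hdac2 and Hdac3 lay between -0.16 and 0.04 and were not called. Ctbp2, a corepressor, fell by 2.44 and Ctnnd1, whose product p120-catenin binds Kaiso, by 1.89, each beyond its spread (limma adjusted p of 2.36e-05 and 1.95e-05). Myc, the partner of Miz-1, fell by 1.06 ± 0.13, and Cul3, whose ubiquitin ligase uses BTB proteins as adaptors, was not called at 0.04 ± 0.10. Without pool 3 the number of higher genes in this list was 3.

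Of 21 genes reported to be repressed or activated by Zbtb proteins 1 was higher and 4 lower, with a median of -0.23. These counts stand beside 14.5% higher and 18.1% lower over all genes. The genes that fell were Kit, the stem cell factor receptor gene repressed by PLZF, at -3.28, Ccna2 at -2.64, Mcm10, repressed by Zbtb38, at -2.41 and Cdca7, activated by Zbtb24, at -1.65. Ccna2 and Mcm10 act in cell division, whose markers, Ccna2 itself among them, were lower throughout, and the part of that shift was not tested. Of 13 measured stem and progenitor markers 1 was higher and 7 lower, and their part in the fall of Kit was not tested. Whether any of the 4 genes fell through a Zbtb protein was not tested either. Ciita, the class II transactivator gene that Zbtb32 represses, rose by 1.02 ± 0.28 (SE, limma adjusted p = 0.026). The count of 1 became 0 on leaving out presort array 2 or 3, sorted array 3 or pool 3, 2 without sorted replicate 1 and 3 without pool 1. The helper and cytotoxic T cell genes Cd4 and Cd8a were not called, at -0.30 and -0.16, nor was Runx3, at 0.36.

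**Figure D4:**
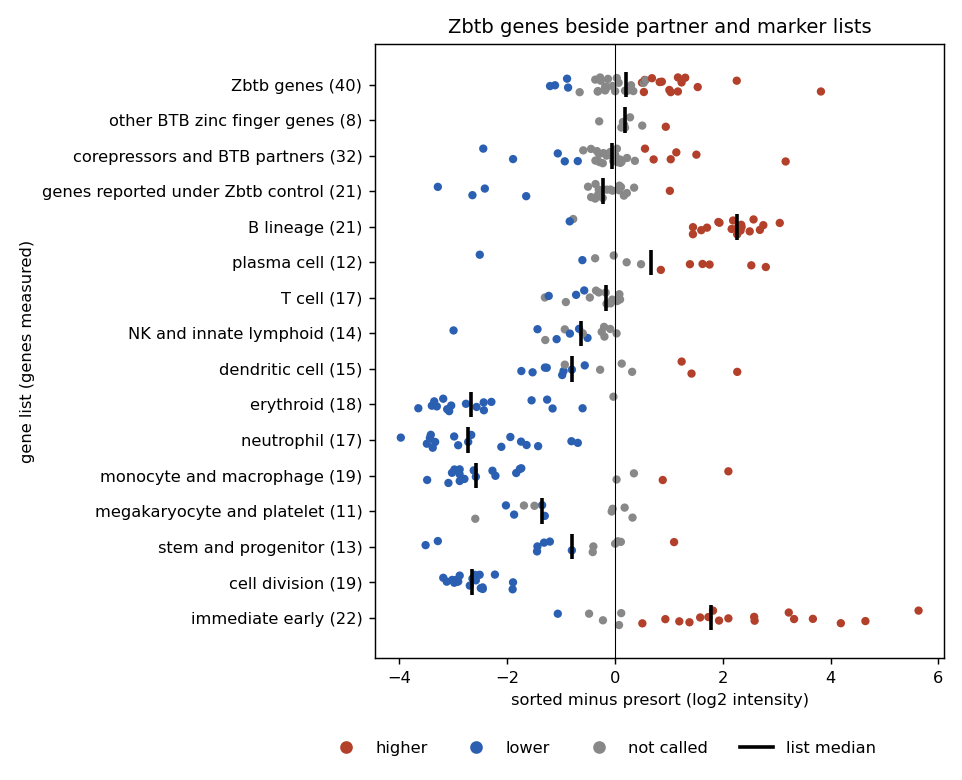
Difference, sorted minus presort, in log2 intensity on the horizontal axis, of the Zbtb genes and of each gene list on the vertical axis, with the number of measured genes in brackets. Points are genes coloured by call, spread vertically for clarity, and black bars are list medians; the Zbtb genes run from -1.20 to 3.82 around a median of 0.21, between the B lineage markers at 2.27 and the erythroid markers at -2.66.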

How the data were processed

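RNA of 6 marrow samples (3 presort, 3 sorted) was measured on 1 Affymetrix mouse array each. The authors deposited RMA intensities on a linear scale; RMA is named per the submitters' processing notes, and its version is not given in the sources used here. Each presort sample was a part of the pool that was sorted, per the labels' protocols. Values were taken as log2 with no pseudocount. Of 45101 probe sets, 34945 had a single gene symbol, and the brightest stood for each of 18193 genes. Groups were compared in limma 3.58.1 under R 4.3.3, by lmFit and then eBayes with 4 residual degrees of freedom, with Benjamini-Hochberg adjustment over all genes. Figures were drawn with matplotlib 3.10.9.

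The replicate number was used as a block only in an alternative, which left 2 residual degrees of freedom. Deviations from the group means correlated at 0.39, 0.20 and -0.03 between the samples of pools 1, 2 and 3. On simulated data with 200 of 18193 genes changed in this comparison, 63% of changes of 1 and 90% of changes of 2 (log2) were recovered with 9 false calls. The simulation changed far fewer genes than were called here and held no pool or RNA quality effect. These rates therefore do not give the recovery in the data. The number of arrays limits the precision. Except with the block, p-values set the difference against the spread of arrays within the groups. They do not use the pairing of presort and sorted samples by pool.

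The members and lists were chosen with earlier results of these data known. Every member was accounted for, and array values were given for members called with a difference of at least 1, for those of the lymphocyte, myeloid and methyl-CpG roles, for those whose probe sets disagree, and, outside that rule, for Zbtb44. From each list at most the largest called genes were named, and the uncalled list genes named were chosen after their values were seen. All 40 symbols matched RefSeq, and 5 probe sets that pair a Zbtb symbol with another were not used. Alternatives were the block, leaving out arrays and pools, other normalizations, probe set rules and limma settings, and a beta-actin covariate.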

Additional observations from a re-analysis of the deposited data

How the results depend on the processing

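Under 18 alternatives, 13 of the 19 called Zbtb genes kept their call in every one; Zbtb1, Zbtb5, Zbtb11, Zbtb40, Zbtb43 and Zbtb48 did not, and the cause was not tested. Of the 21 genes not called, 12 were called under none. With the replicate block 16 members were higher and 4 lower, and Zbtb44 was the member gained. Leaving out arrays or pools gave 9 to 17 higher and 4 to 5 lower Zbtb genes, and 20 to 29 higher and 5 to 7 lower probe sets. In the same settings 1 to 2 BTB zinc finger genes of other names, 3 to 6 corepressors and partners, and 0 to 3 reported targets were higher. Averaging its probe sets moved Zbtb16 from 0.07, not called, to -0.49, called lower, because the mean takes in the 2 dimmer probe sets at -0.49 and -1.06. The beta-actin covariate, which cannot be told apart from the sort, gave 14 higher and 5 lower members. Signal over background was not measured here, so values of the dimmest genes carry the least weight.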
